A study of Mus musculus with 4 samples.

Results

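Krüppel-like factors (KLFs) were examined in mouse astrocyte-enriched cultures (AECs) before and after oxygen–glucose deprivation (OGD), through 10 genes chosen by name: *Klf2*, *Klf3*, *Klf4*, *Klf5*, *Klf6*, *Klf7*, *Klf9*, *Klf10*, *Klf13* and *Klf15*. They were 10 of the 29676 gene names on the array and were read by 13 of its 39429 probes, with 2 probes for *Klf3*, 3 for *Klf13* and 1 for each other gene. All 13 probes passed the filter on dim signal and were tested, and 12 of them were well above background on all 4 arrays. AECs are primary glia from the cortices of newborn ICR mice of either sex, in which all cultures had been treated with the CSF1R inhibitor PLX3397 to remove microglia. One group was left untreated (n = 2) and the other was kept for 15 h in hypoxia and medium without glucose (n = 2). Each well was seeded from an independent culture of pooled pups, and, by the study's own description of the cultures, oligodendrocyte lineage cells remained and some cells detached under OGD. Total RNA was labeled with a single dye and hybridized to 1 Agilent array per sample. The question asked of the data was which KLF transcripts differed between untreated and OGD cultures, and how firmly.

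KLFs are transcription factors that carry zinc fingers at the C-terminal end, with which they bind GC boxes and CACCC elements, and they differ in the N-terminal domains that recruit partners. One group, to which *Klf2*, *Klf4*, *Klf5*, *Klf6* and *Klf7* belong, carries acidic activation domains. A further group, with *Klf9*, *Klf10* and *Klf13*, recruits the corepressor Sin3, and *Klf3* represses through CtBP. *Klf15* stands outside these groups. Several of the genes are early responders to growth factors, stress or hormones, and in glia KLFs have been linked to reactive states and differentiation.

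The probes of *Klf5* and *Klf13* (A_51_P507290 and A_55_P2022082) are shown because both read the conserved zinc finger coding region, in which family members resemble each other. Capitals mark the bases that match between the probes where they overlap without gaps.

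Klf5: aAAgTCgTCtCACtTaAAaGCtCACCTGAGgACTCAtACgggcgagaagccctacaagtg
Klf13: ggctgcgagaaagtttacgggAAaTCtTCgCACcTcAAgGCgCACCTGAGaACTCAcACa

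Of the 40 overlapping bases 29 were identical (72.5%), and the longest identical run was 8 bases. Of the 13 member probes, these were the 2 that encode such a finger helix. Whether either probe also captures the other transcript was not tested. Upstream sequence is shown for *Klf4* and *Klf2*, the activator-group genes with the strongest increase and the strongest decrease, which share the kinase ERK5 and MEF2 factors as known inputs. The windows are the 250 bases before the RefSeq start site (build GRCm38.p6), at chr4:55532476-55532725 on the minus strand for *Klf4* and chr8:72318812-72319061 on the plus strand for *Klf2*. In *Klf4*, capitals mark matches of the hypoxia response core ACGTG on either strand, which overlap here. In *Klf2*, they mark a match to the MEF2 site.

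Klf4: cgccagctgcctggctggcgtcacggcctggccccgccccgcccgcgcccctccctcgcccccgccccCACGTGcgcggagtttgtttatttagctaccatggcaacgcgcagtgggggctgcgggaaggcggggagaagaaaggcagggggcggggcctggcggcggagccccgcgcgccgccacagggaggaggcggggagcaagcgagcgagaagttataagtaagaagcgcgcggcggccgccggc
Klf2: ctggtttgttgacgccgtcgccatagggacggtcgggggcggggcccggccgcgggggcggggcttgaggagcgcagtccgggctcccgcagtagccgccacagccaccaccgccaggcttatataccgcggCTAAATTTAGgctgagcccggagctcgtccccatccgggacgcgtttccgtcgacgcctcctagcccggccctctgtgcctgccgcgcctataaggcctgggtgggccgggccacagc

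Promoter windows of 300 bases (250 before and 50 after the start) were listed for 8 of the 10 genes, not for *Klf5* and *Klf10*. ACGTG was found on either strand in *Klf4*, *Klf6*, *Klf9* and *Klf15*, and in 19.6% of all 32851 promoters. The MEF2 site was found in *Klf2* alone among the 8, and in 3.19% of all promoters. The GC box GGGCGG occurred in all of the 8 except *Klf9* (35.7% of all promoters), and CACCC in all except *Klf4* and *Klf6* (57.5%). These matches are letters in a window and were not tied to the changes below.

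Values are the processed signal, a brightness in arbitrary units, and comparisons were made on log2 signal minus the 75th percentile of each array. That percentile was 2135 and 2164 for untreated cultures against 887 and 776 for OGD, which is -1.37 in log2 units, whereas the mean log2 signal of the spike-in control RNA differed by -0.08. Scaling to the spike-ins lowered every log2 fold change by about the same amount (the median over all probes went from 0.18 to -1.11), so both scales are given for each of the 10 KLF genes, and for other genes singly or as the count of their list. With bulk RNA, fewer cells of a type and less RNA per cell cannot be told apart. No spot was saturated on any array. With 2 arrays per group an exact permutation test cannot go below p = 0.333, so single-gene tests come from limma, fitted across all 28254 probes tested, with Benjamini–Hochberg adjustment.

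By its brightest probe each, 9 of the 10 genes passed an adjusted p of 0.05 in limma. *Klf4*, *Klf5*, *Klf6*, *Klf9* and *Klf10* were higher in OGD and *Klf2*, *Klf3*, *Klf13* and *Klf15* lower, against 37.1% of the 21061 genes tested higher and 27.8% lower. The *Klf13* call rests on a probe listed on the strand opposite to the gene. The zinc finger probe of *Klf13*, listed on the strand of the gene, did not pass, at 0.17 (adjusted p = 0.215 in limma). With spike-in scaling *Klf4* and *Klf5* were higher and 7 genes lower, against 3.84% and 83.3% of all genes. By the methods' t-test after Benjamini–Hochberg adjustment 5 genes passed, 3 higher and 2 lower, against 25.8% and 19.8% of all genes by the same test. It lost *Klf3*, *Klf6*, *Klf9* and *Klf13*, with adjusted p values of 0.0640, 0.0773, 0.126 and 0.0647. Past 2-fold and the adjusted p were *Klf4*, *Klf5* and *Klf10* above (12.7% of all genes) and, by its opposite-strand probe, *Klf13* below (15.0%). None passed the study's limit of 10-fold, which 1.27% of all genes did. Their median log2 fold change was 0.22, against 0.16 over all genes.

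**Figure D1:**
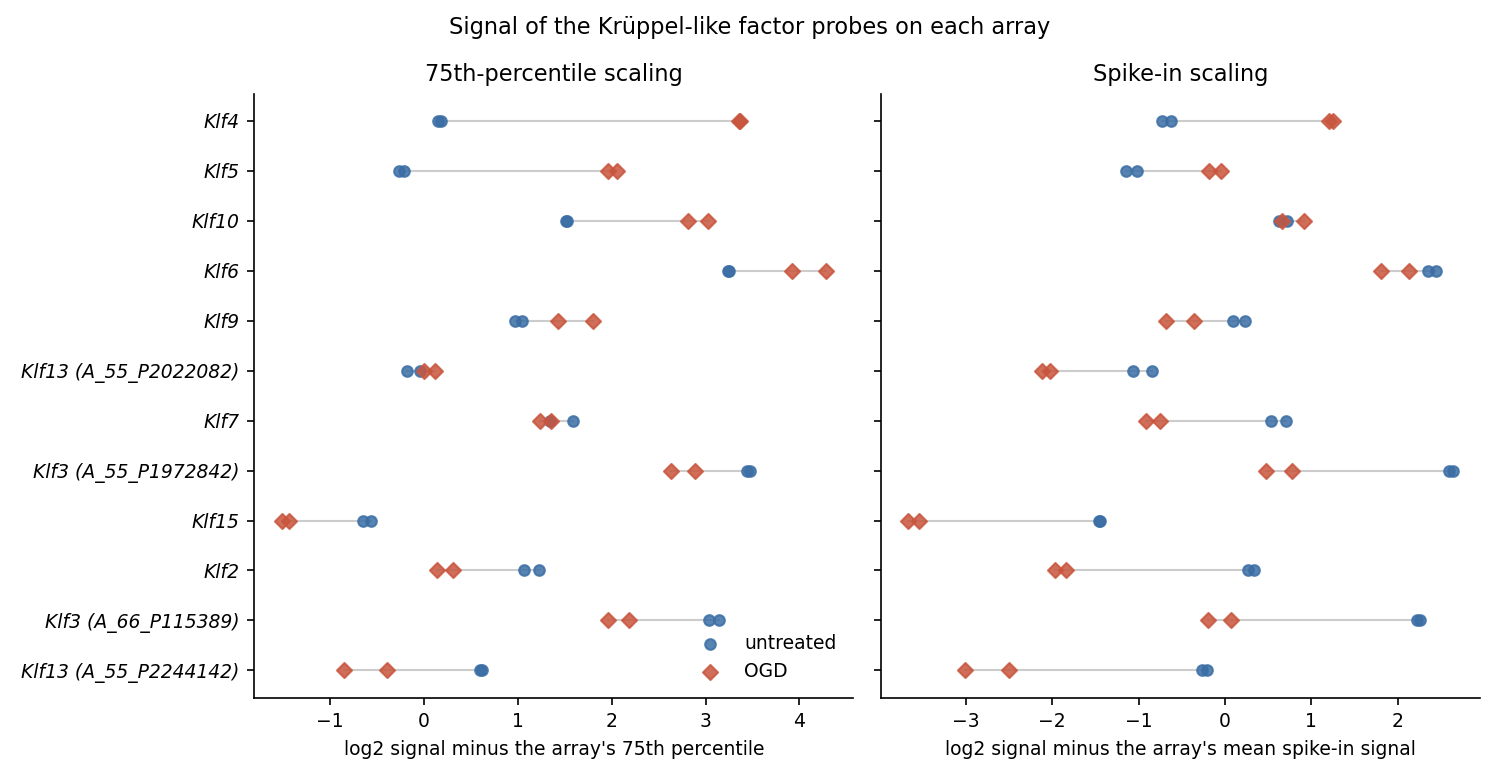
Log2 signal of the 12 KLF probes with signal well above background on every array, relative to the 75th percentile of each array (left) or its mean spike-in signal (right), with 1 point per array (blue circles untreated, red diamonds OGD). *Klf4* and *Klf5* lay higher in OGD on both scales, *Klf6* and *Klf9* were higher on the left and lower on the right, and levels of different probes are not comparable with each other.

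Among the activator group, *Klf4*, *Klf5* and *Klf6* rose, *Klf2* fell and *Klf7* did not pass, all on the 75th-percentile scale (for *Klf6* the direction turned with spike-in scaling). *Klf4* is one of the reprogramming factors and is induced in many cells by stress and inflammatory signals. Its probe (mm9, chr4:55540167-55540226, minus strand) read 2376 and 2454 in untreated cultures and 9091 and 8005 in OGD. Both OGD values were above both untreated values without any scaling. Relative to the 75th percentile the log2 signal was 0.17 ± 0.019 in untreated cultures and 3.36 ± 0.0059 in OGD (SD, n = 2). The log2 fold change was 3.19 ± 0.075 (SE), or 9.15-fold, with an adjusted p of 0.000729 in limma and a 95% interval of 2.98 to 3.40. With spike-in scaling it was 1.91 ± 0.11 (3.75-fold, adjusted p = 0.000106). Of all genes tested, 0.788% rose by more.

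*Klf5*, which drives proliferation of epithelial and smooth muscle cells, also rose. Its probe (mm9, chr14:99702656-99712388, plus strand, a span longer than the probe) read 1775 and 1873 in untreated cultures and 3702 and 3034 in OGD, again with no overlap before scaling. The log2 fold change was 2.25 ± 0.084 (4.76-fold, adjusted p = 0.000758 in limma). It was 0.96 ± 0.12 with spike-in scaling (1.95-fold, adjusted p = 0.00114). *Klf4* and *Klf5* were the members higher on both scales with a passing test.

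*Klf6* is an immediate early gene and a growth suppressor. Its probe (chr13:5869371-5869430, plus strand) read 20167 and 20524 in untreated cultures and 13391 and 15126 in OGD, so the signals themselves were lower in OGD. The 75th percentile of the arrays was lower by more, and the log2 fold change was 0.86 ± 0.15 (1.81-fold, adjusted p = 0.0116 in limma), but -0.43 ± 0.15 with spike-in scaling (adjusted p = 0.0408). With quantile normalization it was 0.33 (adjusted p = 0.141). Without either untreated array it did not pass (adjusted p = 0.0685 and 0.0703). Its direction therefore rested on the scaling.

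*Klf2*, a factor of quiescence known from endothelium and lymphocytes, fell. Its probe (chr8:74845137-74845196, plus strand) read 4985 and 4548 in untreated cultures and 978 and 965 in OGD. The 2 OGD values were close to each other and below both untreated values. The log2 fold change was -0.92 ± 0.11 (adjusted p = 0.00438 in limma), a 1.89-fold lower value, and -2.21 ± 0.11 with spike-in scaling (4.62-fold lower).

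*Klf7*, known for axon growth in neurons, did not pass on the 75th-percentile scale. Its probe (chr1:64082265-64082324, minus strand) read 6436 and 5484 in untreated cultures and 2266 and 1834 in OGD. After scaling to the 75th percentile the groups overlapped, at a log2 fold change of -0.17 ± 0.12 with a 95% interval of -0.52 to 0.18 (adjusted p = 0.289 in limma). With spike-in scaling it was lower, at -1.46 ± 0.13 (adjusted p = 0.000334).

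In the group that recruits Sin3, *Klf10* and *Klf9* rose on the 75th-percentile scale, while the probes of *Klf13* did not give the same value. *Klf10* is the TGF-β inducible early gene. Its probe (chr15:38224255-38224314, minus strand) read 6094 and 6244 in untreated cultures and 7220 and 5467 in OGD, so unscaled values overlapped. The log2 fold change was 1.40 ± 0.11 (2.64-fold, adjusted p = 0.0017 in limma) and 0.11 ± 0.13 with spike-in scaling (adjusted p = 0.460).

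*Klf9* is induced by glucocorticoids and thyroid hormone. Its probe (chr19:23240410-23240469, plus strand) read 4189 and 4453 in untreated cultures and 2392 and 2698 in OGD. On the 75th-percentile scale the log2 fold change was 0.61 ± 0.15 (1.52-fold, adjusted p = 0.0301 in limma), and with spike-in scaling it turned to -0.68 ± 0.15 (adjusted p = 0.00971). This was the weakest of the calls: without either untreated array the adjusted p was 0.136 and 0.116.

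*Klf13*, first described as an activator of *Ccl5* in T lymphocytes, had the most divergent probes. The brightest probe (A_55_P2244142, chr7:71032482-71032541) read 3286 and 3281 in untreated cultures and 676 and 430 in OGD. Its log2 fold change was -1.23 ± 0.18 (adjusted p = 0.00721 in limma), or 2.35-fold lower, and -2.52 ± 0.19 with spike-in scaling. It is listed on the plus strand, whereas the other 2 *Klf13* probes and the gene in RefSeq are on the minus strand. The zinc finger probe shown above (A_55_P2022082, chr7:71082854-71082913) read 1889 and 2110 in untreated cultures and 885 and 846 in OGD. Its log2 fold change was 0.17 ± 0.10 (adjusted p = 0.215 in limma) and -1.12 ± 0.13 with spike-in scaling (adjusted p = 0.000814). The remaining probe (A_52_P281659) read 16.9 and 18.7 in untreated cultures and was not well above background in either OGD array. With OGD values set to no less than the dimmest signal well above background on each array, it was 1.03-fold lower on the 75th-percentile scale. Its log2 fold change of -1.63 ± 0.54 did not pass (adjusted p = 0.0625), and under normexp background correction it passed as higher, at 0.92 (adjusted p = 0.000155). Which of these probes reads the *Klf13* transcript was not tested. Counted by the zinc finger probe, a choice made after its values were seen, *Klf13* did not pass on the 75th-percentile scale and the count of genes past the adjusted p was 8.

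*Klf3* is the repressor that acts through CtBP, and both of its probes fell. The brightest (A_55_P1972842, chr5:65221309-65221368, plus strand) read 23742 and 23513 in untreated cultures and 6582 and 4828 in OGD. Its log2 fold change was -0.69 ± 0.12 (adjusted p = 0.0106 in limma), and -1.98 ± 0.14 with spike-in scaling. This call was lost in limma without either untreated array (adjusted p = 0.0721 and 0.0688) and in the methods' t-test (adjusted p = 0.0640). The second probe (A_66_P115389, chr5:65223991-65224050) was at -1.02 ± 0.11 (adjusted p = 0.00376) and at -2.30 ± 0.13 with spike-in scaling.

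*Klf15* controls amino acid catabolism and glucose metabolism and is induced by glucocorticoids. Its probe (chr6:90425144-90425203, plus strand) read 1448 and 1381 in untreated cultures and 329 and 272 in OGD. The groups did not overlap on any scale. The log2 fold change was -0.87 ± 0.086 (1.83-fold lower, adjusted p = 0.00278 in limma) and -2.16 ± 0.11 with spike-in scaling (4.46-fold lower).

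**Figure D2:**
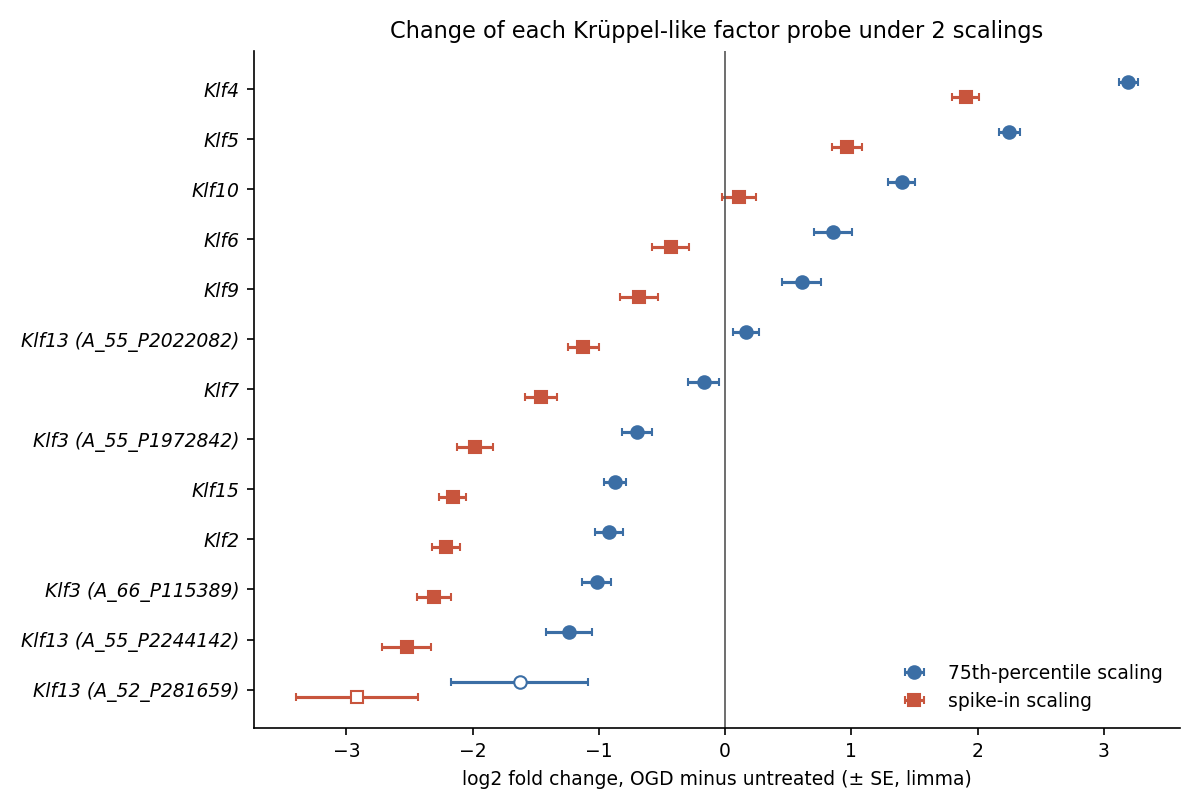
Log2 fold change (OGD minus untreated, ± SE from limma, n = 2 arrays per group) of all 13 KLF probes with 75th-percentile scaling (blue circles) and spike-in scaling (red squares). Open symbols mark the *Klf13* probe that was not well above background in OGD, and the scalings give opposite signs for *Klf6*, *Klf9* and the zinc finger probe of *Klf13*.

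A change in the ratio of a pair of probes within an array does not depend on a scaling that applies 1 factor per array, and 6 pairs were computed. The *Klf4* to *Klf2* ratio was higher in OGD by 4.11 on the log2 scale (17.3-fold), and by 3.94 to 4.29 when each OGD array was set against each untreated array. The ratio of *Klf4* to *Klf5* changed by 0.94, that of *Klf6* to *Klf7* by 1.03, that of *Klf9* to *Klf15* by 1.48 and that of *Klf10* to the zinc finger probe of *Klf13* by 1.23. The 2 bright *Klf13* probes differed in their change by 1.40. Quantile normalization, which is not such a scaling, gave 0.63 for *Klf6* to *Klf7* and 3.96 for *Klf4* to *Klf2*. In every pair all 4 differences had the same sign. The pairs were not planned, and the probe with the higher log2 fold change stands first in each, so the shared sign is no test. The exact two-sided permutation p was 0.333 in each pair, the smallest that 2 against 2 arrays allow, before and after adjustment.

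**Figure D3:**
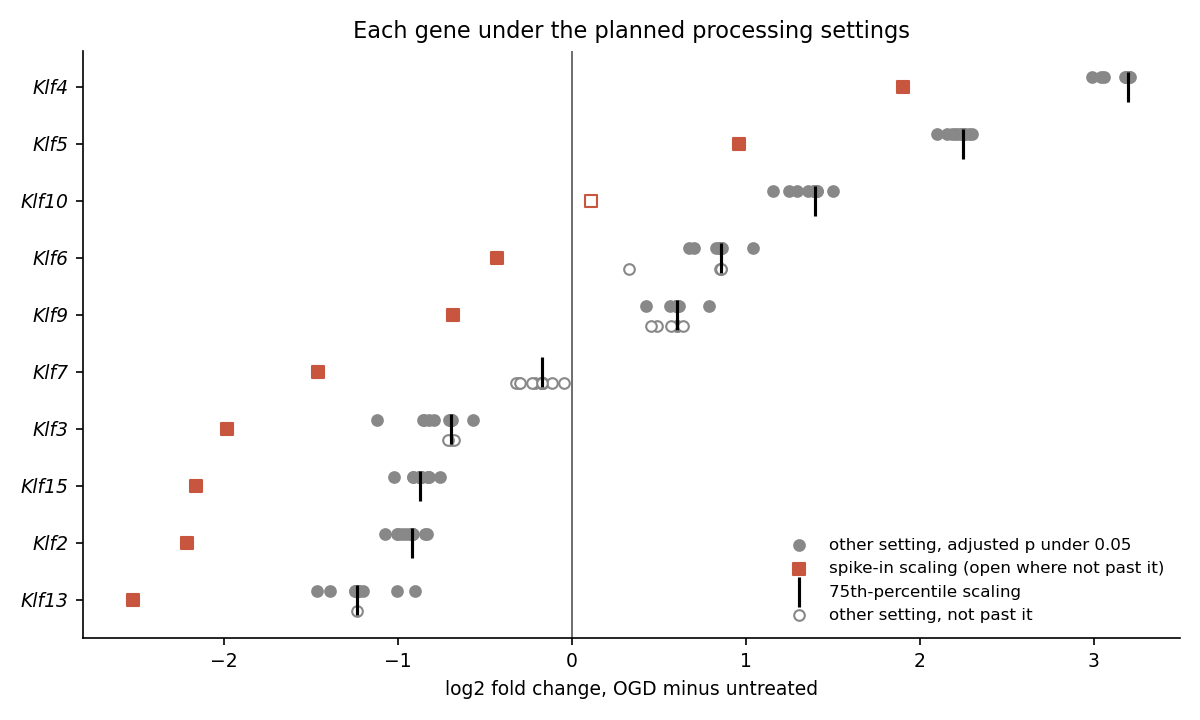
Log2 fold change of each gene (brightest probe) in limma or the methods' test under the planned settings: the black bar is 75th-percentile scaling, red squares spike-in scaling, and grey circles the others, filled where the adjusted p was under 0.05 and open where it was not. For the methods' t-test without adjustment the unadjusted p was used. *Klf4* and *Klf5* stayed to the right of 0 and *Klf2* and *Klf15* to the left under every setting, whereas *Klf6* and *Klf9* crossed 0 with spike-in scaling.

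The remaining genes of the family were 7, of which *Klf14* and *Klf17* were not well above background on both arrays of a group and were not tested. Of the 5 tested, 1 was higher and 3 lower, against 37.1% and 27.8% of all genes, and 3 were higher and none lower under normexp, against 60.5% and 20.8% of all genes. *Klf16*, a member of the Sin3 group, rose, with a log2 fold change of 1.15 (adjusted p = 0.00245), though it was at -0.13 with spike-in scaling (adjusted p = 0.395). *Klf11*, of the same group, fell, with -1.14 and -2.43 on the 75th-percentile and spike-in scales, but turned to 0.45 under normexp background correction (adjusted p = 0.00435). Its signals were 56.4 and 49.4 in untreated cultures and 9.52 and 8.97 in OGD. *Klf8* (-1.02 and -2.31) and *Klf12* (-0.45 and -1.74), which act through CtBP like *Klf3*, fell on these scales. Under normexp they did not pass, at 0.032 (adjusted p = 0.768) and -0.11 (adjusted p = 0.304), and *Klf12* did not pass under quantile normalization either (adjusted p = 0.0618). *Klf1*, the erythroid factor, was not well above background in OGD. With the same floor as for the dim *Klf13* probe, it was 1.23-fold lower on the 75th-percentile scale. Its log2 fold change of -1.03 did not pass (adjusted p = 0.0994), and under normexp it was 0.99 (adjusted p = 5.32e-05).

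The related Sp factors, which bind the same GC boxes, gave 1 higher and 1 lower gene among the 7 tested (median log2 fold change 0.15), against 37.1% and 27.8% of all genes, and all 7 were lower with spike-in scaling, as were 83.3% of all genes. Under normexp 3 were higher and 1 lower (60.5% and 20.8% of all genes). *Sp2* was at 0.47 (adjusted p = 0.0135, and -0.82 with spike-in scaling). *Sp8* was at -0.73 (adjusted p = 0.00625, and -2.02 with spike-in scaling). *Sp7* and *Sp9* were not well above background.

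Of 9 KLF cofactors, 6 rose on the 75th-percentile scale (37.1% of all genes did), with a median of 0.55, whereas all 9 were lower with spike-in scaling, as were 83.3% of all genes. Under quantile normalization 3 were higher and 2 lower (28.4% and 31.1% of all genes), and *Sin3b* (0.10), *Ctbp1* (-0.17) and *Ctbp2* (0.23) did not pass. *Sin3b*, a scaffold of the Sin3 corepressor, was at 0.94 (-0.35 with spike-in scaling). *Crebbp*, a histone acetyltransferase, was at 0.89 (-0.40), the corepressor *Ctbp2* at 0.65 (-0.64) and the acetyltransferase *Kat2b* at 0.62 (-0.67). *Ep300*, the relative of *Crebbp*, fell on both scales (-0.56 and -1.85), but did not pass under normexp, at -0.22 (adjusted p = 0.0717). Dimmer probes of *Crebbp* (-0.54, adjusted p = 0.0161) and *Sin3b* (-0.20, adjusted p = 0.264) lay on the other side of 0.

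Of 4 ubiquitin ligases reported to act on KLF proteins, 1 was higher and 1 lower (37.1% and 27.8% of all genes). With spike-in scaling 1 was higher and 3 lower, against 3.84% and 83.3% of all genes. *Smurf1*, a HECT-type ligase, read 484 and 516 in untreated cultures and 2151 and 1940 in OGD, with a log2 fold change of 3.40 (adjusted p = 0.000729), and of 2.12 with spike-in scaling. *Fbxw7*, the substrate receptor of an SCF ligase, read 2380 and 2371 in untreated cultures and 310 and 277 in OGD, at -1.64 (adjusted p = 0.000857), and -2.93 with spike-in scaling. *Wwp1* (0.34) and *Fbxo32* (-0.22) did not pass on the 75th-percentile scale and were lower with spike-in scaling (-0.95 and -1.51).

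Of the 6 genes of the ERK5–MEF2 route to *Klf2* and *Klf4*, 3 rose and 2 fell (37.1% and 27.8% of all genes), with a median of 0.25, whereas 5 were lower and none higher with spike-in scaling, against 83.3% and 3.84% of all genes. *Mef2b* was at 1.23 (-0.06 with spike-in scaling, without passing) and *Mef2a* at 0.90 (-0.39). The *Mef2b* probe was dim, at 14.18 and 12.43 in untreated cultures and 11.55 and 12.56 in OGD, so its unscaled values overlapped. *Mef2c* was at 0.30 (adjusted p = 0.0304, and -0.99 with spike-in scaling), but did not pass under quantile normalization (adjusted p = 0.0501). Under that setting 2 genes were higher and 2 lower (28.4% and 31.1% of all genes). *Map2k5*, the kinase upstream of ERK5, was at -0.59 (-1.87) and *Mef2d* at -0.32 (-1.61). *Mapk7*, which encodes ERK5, was at 0.20 (adjusted p = 0.127) and at -1.09 with spike-in scaling. Other probes of some of these genes differed. The dimmer ones of *Mef2d* were at 1.71 and 1.82 and one of *Mef2a* was at 2.83, and with spike-in scaling at 0.42, 0.53 and 1.54. The dimmer probe of *Map2k5* was at -0.07 (adjusted p = 0.442).

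Glucocorticoids are known to induce *Klf9* and *Klf15*, and of 8 other genes of the glucocorticoid response 6 rose and none fell in limma, with a median of 0.92, whereas with spike-in scaling 3 were higher and 4 lower. Over all genes 37.1% rose and 27.8% fell, and with spike-in scaling 3.84% were higher and 83.3% lower. *Tsc22d3*, a defining target of the receptor, was at -0.26 (adjusted p = 0.0501, unadjusted p = 0.0326) and at -1.55 with spike-in scaling. It passed as lower with -0.33 under normexp (adjusted p = 0.0104) and with -0.46 under quantile normalization (adjusted p = 0.0107). *Fkbp5*, also a target on this list, was higher at 0.87 (adjusted p = 0.00211), and lower at -0.42 with spike-in scaling (adjusted p = 0.0151). *Nr3c1*, which encodes the receptor, was at 0.35 (adjusted p = 0.0298, and -0.94 with spike-in scaling). Its dimmer probe was at 2.39 (1.11 with spike-in scaling). Activity of the receptor was not tested. The leading genes were *Errfi1* (3.49), *Dusp1* (2.71), *Sgk1* (2.08) and *Per1* (0.98), which other stimuli also induce. *Errfi1*, *Dusp1* and *Sgk1* were higher with spike-in scaling as well (2.20, 1.42 and 0.80), and *Per1* was at -0.31 without passing.

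Of 12 genes reported as KLF targets, 7 rose and 4 fell (37.1% and 27.8% of all genes), with a median of 0.53, and with spike-in scaling 10 were lower and none was higher, against 83.3% and 3.84% of all genes. *Bcat2* and *Prodh*, amino acid catabolic genes tied to *Klf15*, fell with -1.57 and -0.45 (-2.86 and -1.74 with spike-in scaling), though *Prodh* did not pass under quantile normalization (adjusted p = 0.0557). *Nos3* and *Eng*, endothelial genes tied to *Klf2* and *Klf6*, fell too, with -0.75 and -0.57 (-2.04 and -1.86 with spike-in scaling), while *Eng* was at 0.21 under normexp (adjusted p = 0.0579). Other targets of this list rose: *Ccl5* was at 0.80 (adjusted p = 0.00254), *S1pr1* at 0.63 (adjusted p = 0.0142) and *Slc2a4* at 0.57 (adjusted p = 0.0101). With spike-in scaling they were lower (-0.49, -0.66 and -0.72). Whether any of these genes followed a KLF was not tested. *Thbd*, the thrombomodulin gene tied to *Klf2* and *Klf4*, was at 1.52 (0.23 with spike-in scaling, adjusted p = 0.103). *Smad7* was at 1.40 (0.11 with spike-in scaling, adjusted p = 0.76). *Cdkn1a*, a cell cycle inhibitor tied to *Klf4* and *Klf6*, was at 0.94, turning to -0.35 with spike-in scaling, while its dimmer probes were at 2.01 and -0.44 on the 75th-percentile scale.

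**Figure D4:**
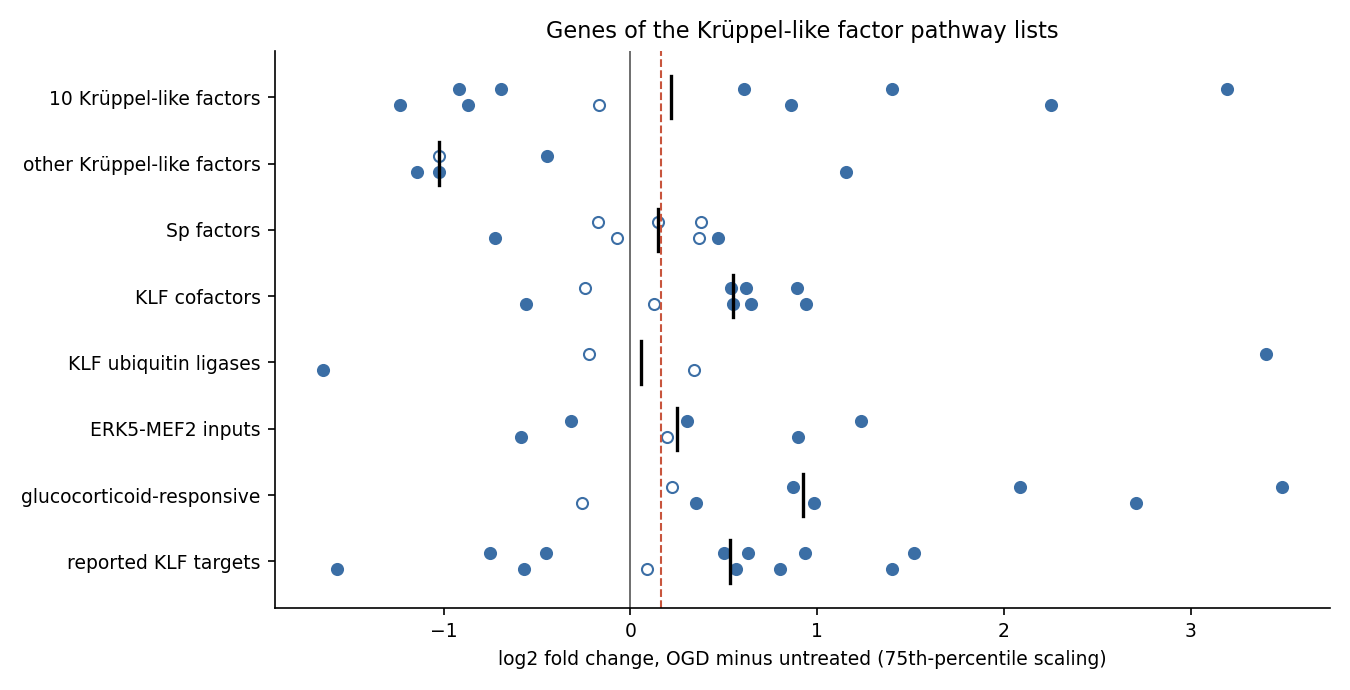
Log2 fold change with 75th-percentile scaling for the 10 KLFs and 7 related gene lists, with 1 point per gene by its brightest probe (filled where the adjusted p in limma was under 0.05). Black bars are list medians and the dashed red line is the median of all genes tested, 0.16. With spike-in scaling the median of all genes was -1.13, so most points would lie left of 0.

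Markers of the cells that these cultures could hold were counted beside the KLF values, with sums of signal given as multiples of the 75th percentile. Outlier spots were kept in these sums. Over all genes 37.1% were higher and 27.8% lower, and with spike-in scaling 83.3% were lower. Under normexp the shares were 60.5% and 20.8%, and under quantile normalization 28.4% and 31.1%. With spike-in scaling no gene of these lists was higher by its brightest probe. The 10 astrocyte markers were all well above background, and their sum was 149 to 168 in untreated cultures and 228 to 233 in OGD. On the 75th-percentile scale 6 rose and *Sox9* fell (-1.52, and -2.81 with spike-in scaling), whereas 8 were lower with spike-in scaling, and 3 were higher and 3 lower under quantile normalization, where *Gfap* was at -0.03 and *Aldh1l1* at -0.34. *Aldh1l1* was at 0.44 by its brightest probe (adjusted p = 0.0123), but its dimmer probe was at -2.50 (adjusted p = 0.000752, and -3.79 with spike-in scaling). For endothelium, where *Klf2* and *Klf4* are best known, *Cldn5*, *Tek*, *Emcn*, *Erg* and *Tie1* were not well above background. The 5 tested summed to 1.98 to 2.09 in untreated cultures and 1.66 to 1.91 in OGD, with *Kdr* and *Esam* lower and none higher in limma (*Flt1* was at 0.60, adjusted p = 0.0546 but an unadjusted p of 0.036), whereas all 5 were lower with spike-in scaling and 3 higher and 1 lower under normexp. Dimmer probes of *Flt1* and *Kdr* were at 3.58 and 1.11, and with spike-in scaling at 2.29 and -0.18.

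Microglial markers summed to at most 1.80 in untreated cultures and 1.90 in OGD, and *C1qa* was not well above background on both arrays of a group. The brightest *Itgam* probe read 3328 of a summed 3851 in untreated replicate 1, where its other probes read 12.2 and 36.4. Of the 7 tested, *Csf1r* (1.14) and *Aif1* (1.03) were higher and *Trem2* (-0.93) and *Tmem119* (-0.88) lower on the 75th-percentile scale, with 5 lower and none higher with spike-in scaling. Dimmer *Csf1r* probes did not pass, at 0.49 (adjusted p = 0.0633) and 0.48 (adjusted p = 0.440). Under normexp 5 were higher and none lower, *Trem2* turning to 0.67 (adjusted p = 0.000356). Oligodendrocyte lineage markers summed to 29.2 to 29.5 in untreated cultures and 25.6 to 26.5 in OGD. *Mbp* (1.19), *Cspg4* (0.88) and *Cnp* (0.51) were among the higher genes on the 75th-percentile scale and *Olig2* (-2.50), *Pdgfra* (-1.27), *Sox10* (-0.76) and *Olig1* (-0.49) were the lower ones, whereas 8 of 9 were lower and none higher with spike-in scaling. Another *Mbp* probe did not pass on the 75th-percentile scale, at 0.50 (adjusted p = 0.150). *Sox10* was well above background on 1 of the 2 OGD arrays and turned to 0.83 under normexp (adjusted p = 0.000145), where 6 genes were higher and 3 lower.

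Mural and fibroblast markers summed to 73.6 to 84.95 in untreated cultures and to 136 to 142 in OGD, sums that *Acta2* carried. Its signal, 157065 in untreated replicate 1, was part of a summed 181358 there. *Acta2* (0.91) and *Rgs5* (0.38) were higher and *Pdgfrb* was lower (-2.42, 5.35-fold lower, adjusted p = 0.000752), while *Dcn* (-0.26) did not pass. *Col1a1* was at -0.57, a value that rests on OGD replicate 2, since the spot of OGD replicate 1 was an outlier. All 6 were lower with spike-in scaling, and under quantile normalization none was higher and 1 lower. Neuronal markers summed to 8.25 to 8.65 in untreated cultures and to 9.05 to 9.37 in OGD. Of 6, *Gad1* (1.32), *Map2* (0.30) and *Tubb3* (0.28) were higher and *Syt1* (-0.60) lower on the 75th-percentile scale. *Rbfox3* was not well above background in OGD, and with the floor used for *Klf1* it was 1.52-fold lower. It passed as lower (adjusted p = 0.0132) but turned to 0.90 under normexp (adjusted p = 8.43e-05). With spike-in scaling 5 were lower, and under quantile normalization 1 was higher and 2 lower. The part of such cell types in the KLF values was not tested.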

How the data were processed

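Arrays of untreated AECs (n = 2) and AECs after 15 h of OGD (n = 2) were used. The authors labeled the RNA with Cy3, scanned the arrays and ran Agilent Feature Extraction (version 11.5.1.1 in the submitters' processing notes). For each spot they deposited an intensity (processed signal) that the software had corrected for background within an array, without normalization between arrays. The 4 arrays were on 1 slide and in 1 scan. Probe positions are on mm9, per the file headers. No exon or UTR annotation of that build was used here.

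Control spots and outlier spots were left out, spots of a probe were averaged as log2 signal, and each array's 75th percentile was subtracted. Sums of marker signal kept the outlier spots. Probes were kept if a fraction of 0.5 or more of their spots was well above background on both arrays of either group, and limma 3.58.1 (R 4.3.3) tested them. A gene took the value of its brightest probe. The floor used for probes dim in OGD was the dimmest signal well above background on each array. Some dim spots lay above that floor without being flagged, so it gives no strict bound. Limits were an adjusted p of 0.05 and 10-fold, as in the methods. Named list genes were up to 4 per list with the largest change past the adjusted p. Some further genes, such as those behind a small count or singled out for a limit, were named too, after their values were seen. Spike-in scaling used 9 of 10 spike-in probes. The steps were tested on simulated data. The precision rests on the number of arrays. The members and lists were chosen with earlier results of these data known. Sequences came from the probe annotation and RefSeq.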

Additional observations from a re-analysis of the deposited data

How the results depend on the processing

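Of 18 alternatives, *Klf2*, *Klf4*, *Klf5* and *Klf15* kept their direction and passed a p of 0.05 under each, adjusted in all but the unadjusted t-test. With spike-in scaling *Klf6* was at -0.43 and *Klf9* at -0.68, both reversed, and counts were 2 KLF genes higher and 7 lower. *Klf13* was at 0.17 by its zinc finger probe, a choice made after seeing the data, with 8 KLF genes past the limit. Of the other family genes, with settings chosen after seeing the data, normexp turned *Klf1* to 0.99, *Klf8* to 0.032 and *Klf11* to 0.45, and spike-in scaling turned *Klf16* to -0.13. The methods' t-test after Benjamini–Hochberg adjustment left 5 KLF genes (3 higher, 2 lower) and 6 KLF probes, and unadjusted 8 genes, against 9 genes and 10 probes in limma, while the count over all probes went from 18354 to 12680. With a 2-fold limit 4 KLF genes passed, against 0 at 10-fold, which stayed 0 under the other alternatives. Leaving out 1 array, 10731 to 19161 probes of all passed (11551 without untreated replicate 1, 10731 without untreated replicate 2), against 18354, with 6 to 9 KLF genes, 7 to 11 KLF probes and 0 past 10-fold. Without either untreated array *Klf3*, *Klf6* and *Klf9* no longer passed. In such fits the lone array was assumed to vary like the other group. Quantile normalization left 7 KLF genes. Over all probes, 10708 were higher and 7646 lower, and this split moved to 17755 and 5366 with normexp, 8683 and 8393 with quantile normalization, 8766 and 8952 with the percentile over bright probes, 14802 and 7030 without a filter on dim probes, and 1262 and 23153 with spike-in scaling. With the replicate block, 17207 probes, 9 KLF genes and 11 KLF probes passed. The replicate numbers share only a number, since same-numbered deviations correlated at -0.0574. The cause of these differences was not tested. Precision is limited by 2 arrays per group.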
